A study of Mus musculus with 24 samples.

Results

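The removal of serine and glycine from the medium was examined in wild-type (WT) HY19636 cells grown alone, without hepatocytes. HY19636 is a mouse cell line of pancreatic ductal adenocarcinoma (PDAC), and all of its groups in the series carry whatever alterations drive that line. The comparison held 6 of the 24 RNA sequencing libraries, chosen by their labels: 3 libraries of WT monocultures in medium free of serine and glycine and 3 of WT monocultures in medium that contained both. Of 54532 genes in the deposited table, the 12061 with an FPKM (sequenced fragments per kilobase of gene length, adjusted for the depth of each library) of at least 1 in at least 3 of the 24 libraries were tested. The other groups were WT cells cocultured with hepatocytes and Phgdh knockout (KO) cells with and without hepatocytes, each with and without serine and glycine, 3 libraries each. The sources used here do not give the time in the medium, the number of KO clones or how cancer cells were parted from hepatocytes. No label states that replicates were separate cultures, and the p-values therefore rest on a spread between libraries that may be purely technical.

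Serine can be taken up from the medium or made from the glycolytic intermediate 3-phosphoglycerate by Phgdh, Psat1 and Psph, in that order. Serine hydroxymethyltransferases turn serine into glycine and pass its one-carbon unit to folate, which carries it to purine, thymidylate and methionine synthesis. In many mammalian cells, loss of an amino acid activates the kinase GCN2 and the transcription factor ATF4, which binds composite C/EBP-ATF elements and raises transcripts of amino acid transporters, aminoacyl-tRNA synthetases and serine synthesis enzymes. The title of the series names hepatocyte-derived serine in liver metastasis, and the monoculture comparison shows what withdrawal did to cells that kept Phgdh and had no hepatocytes beside them.

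The 6 libraries held 17101691 to 18255264 reads assigned to genes. Pearson correlations across genes were 0.990 to 0.992 between replicates and 0.988 to 0.990 between the groups, and the first principal component (29.2% of the variance) placed the 3 serine- and glycine-free libraries on one side and the 3 others on the other. Of 10 ductal epithelium markers 7 had an FPKM of at least 1, with Krt18 at 659 to 727 and Krt19 at 64.0 to 73.2. The others were near 0, namely Epcam (0.026 to 0.246), Cftr (0.151 to 0.310) and Onecut1 (0 to 0.052). Of 15 hepatocyte markers in the table, 11 were at 0 in all 6 libraries and none reached an FPKM of 1. Among markers of macrophages, endothelial cells, stellate cells and fibroblasts, and acinar and islet cells, those with an FPKM of at least 1 were Cd68, a lysosomal protein also made outside macrophages (6.80 to 9.67), and Pdgfra (1.06 to 1.28).

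Withdrawal moved few genes, by small amounts, and mostly upward. At an adjusted p under 0.05 (limma on log2(FPKM + 1), Benjamini-Hochberg over all 12061 genes), 196 genes were called, which is 1.63% of those tested. Of them 165 (1.37%) rose and 31 (0.257%) fell, with median log2 changes of 0.32 and −0.27, and 4 changed at least 2-fold. The split moved with the fit: 207 rose and 95 fell with only the 6 WT monoculture libraries, 386 and 193 with the 12 WT libraries, and 197 and 76 with trends on gene length and GC content removed. At an unadjusted p under 0.05 there were 1430 genes. The median size of change over all tested genes was 0.087 on the log2 scale, beside a median standard error of 0.10. In none of the 196 did the 3 and 3 libraries overlap, while 3358 of all tested genes (27.8%) did not overlap either. The count fell to between 62 and 140 when any single one of the 6 libraries was left out, and was lowest when replicate 3 of the libraries without serine and glycine was the one left out. Leaving out replicate 1 of the 2 KO monoculture groups, whose libraries stood apart in their groups and enter the shared estimate of spread, raised it to 431, and all 196 remained among these.

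Lama5, Fat1, Hspg2 and Plec had the largest rises among called protein-coding genes with a mean FPKM of 5 or more in the higher group. These are genes of the basement membrane, cell adhesion and the cytoskeleton, while the rises after them were in genes of varied function. Lama5 (chromosome 2, 180176373 to 180225859, GRCm38), the laminin α5 chain of epithelial basement membranes, had FPKM of 184, 174 and 187 without serine and glycine and 118, 115 and 116 with them, and rose by 0.64 ± 0.13 (log2 change ± SE, limma adjusted p = 0.0150). The atypical cadherin Fat1 (chromosome 8, 44935447 to 45052257) had FPKM of 18.8, 16.4 and 19.3 without and 11.4, 11.6 and 11.9 with them (0.60 ± 0.07, adjusted p = 6.66e-05). In both genes the groups were well apart, and replicate 2 of the serine- and glycine-free group was the lowest of its group. The heparan sulfate proteoglycan perlecan, Hspg2, was at 6.20, 6.04 and 6.69 against 4.03, 3.86 and 3.93 (0.56 ± 0.12, adjusted p = 0.0174). The cytolinker plectin, Plec, was at 14.2, 14.7 and 13.5 against 9.88, 9.37 and 9.31 (0.53 ± 0.10, adjusted p = 0.00733). They were followed by the AP-1 subunit Fosb (0.52), the H3K4 methyltransferase Kmt2d (0.52), the laminin receptor subunit Itga7 (0.51), the organic anion transporter Slco4a1 (0.48), the cytolinker dystonin, Dst (0.48), the histone acetyltransferase scaffold Trrap (0.48), the efflux transporter Abcc5 (0.47) and the transcriptional corepressor Spen (0.46). With each library's trend on gene length removed, Fat1, Slco4a1, Dst and Abcc5 kept their calls. The calls of Lama5, Hspg2, Fosb, Plec (adjusted p = 0.305), Kmt2d (0.447), Itga7 (0.166), Trrap (0.0931) and Spen (0.151) were lost, with changes that stayed above 0.

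Among genes of the same kind, the falls were led by Cdh17 (chromosome 4, 11758147 to 11817895), the liver-intestine cadherin, at FPKM of 4.45, 4.64 and 4.65 without serine and glycine and 6.26, 6.97 and 7.19 with them (−0.48 ± 0.08, adjusted p = 0.00225). The tetraspanin Tspan12 was at 4.84, 5.19 and 4.35 against 7.02, 7.01 and 6.66 (−0.45 ± 0.09, adjusted p = 0.0140). Snrpf, the Sm protein F of spliceosomal snRNPs, was at 30.2, 32.3 and 31.6 against 37.8, 39.0 and 45.5 (−0.36 ± 0.07, adjusted p = 0.0146). Each of these was lower in every serine- and glycine-free library than in any other of the 6, which the rule for picking the leading falls required. The other leading falls were in the placental growth factor Pgf (−0.34), the secreted carbonic anhydrase Car6 (−0.33), the membrane skeleton protein Add2 (−0.33), Rin2, an exchange factor for Rab5 (−0.32), the stress gene Gadd45a (−0.32), the BMP antagonist Grem1 (−0.31), the ribosome biogenesis gene Rsl24d1 (−0.28), the keratin Krt23 (−0.27) and the proteasome subunit Psma7 (−0.27). With the length trend removed 11 of the 31 falls stayed called, among them Cdh17. The calls of Snrpf, Pgf, Gadd45a, Rsl24d1 (limma adjusted p = 0.225), Krt23 (0.0539) and Psma7 (0.138) were lost.

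**Figure D1:**
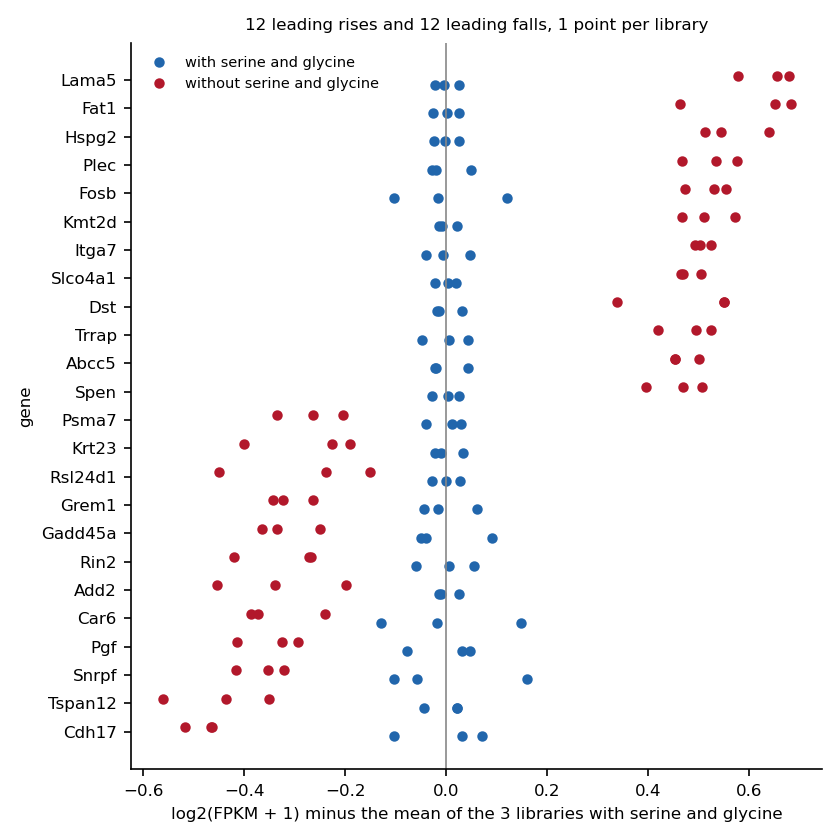
The x axis gives log2(FPKM + 1) of each library minus the mean of the 3 WT monoculture libraries with serine and glycine, for the 12 largest rises and 12 largest falls on the y axis, with 1 point per library. Red points (without serine and glycine) and blue points (with them) do not overlap in any of the 24 genes, which was a condition of their choice. The red points of the rises spread most in Fat1 and Dst, where replicate 2 lies lowest.

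No transcript of serine synthesis was higher without serine and glycine. Phgdh (chromosome 3, 98313170 to 98339990), the first and committed enzyme, had FPKM of 789, 818 and 794 without serine and glycine and 934, 929 and 903 with them. The serine- and glycine-free libraries were all lower, but the change of −0.20 ± 0.12 did not pass the test (adjusted p = 0.536, with a range of 0.0311 to 0.884 among the alternatives), and its 95% interval ran from −0.45 to 0.04. Phgdh was called lower in 2 of 19 alternatives. Its SE rests on the spread in all groups of the fit. The standard deviation was 15.5 and 16.6 FPKM in the WT monocultures without and with serine and glycine, and 96.6 in KO monocultures with them. The transaminase Psat1 was at 95.3, 102 and 95.5 against 108, 106 and 104 (−0.12, adjusted p = 0.393). The phosphatase Psph was at 31.7, 31.0 and 29.4 against 34.3, 32.4 and 32.3 (−0.10, adjusted p = 0.562). All 3 enzymes thus had lower values without serine and glycine in every library, but the groups of 27.8% of all tested genes did not overlap either. None of the 3 was called, beside 1.63% of all genes.

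Genes that use serine and glycine were also little moved. Of 16 tested genes of the folate one-carbon cycle 0 were called, and their median log2 change was 0.02. Shmt2, the mitochondrial serine hydroxymethyltransferase, was at FPKM of 124, 127 and 119 without and 121, 120 and 123 with serine and glycine, with overlapping groups (0.02, adjusted p = 0.963). Its cytosolic counterpart Shmt1 was at 3.92, 4.47 and 3.90 against 4.10, 4.53 and 4.36 (−0.07, adjusted p = 0.834). Mthfd2, the mitochondrial methylenetetrahydrofolate dehydrogenase, had the lowest p of the list at 96.7, 96.5 and 92.7 against 105, 102 and 103 (−0.11 ± 0.04, adjusted p = 0.211). Of 4 glycine cleavage genes 0 were called. The glycine decarboxylase Gldc was at 2.38, 2.56 and 2.55 against 2.40, 1.74 and 1.75, where replicate 1 with serine and glycine overlapped the other group (0.25 ± 0.08, adjusted p = 0.138).

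Among 5 tested methionine cycle and transsulfuration genes 1 fell, beside 0.257% of all tested genes. Cth (chromosome 3, 157894248 to 157925077), cystathionine γ-lyase, releases cysteine from cystathionine, which is made from homocysteine and serine. It was at FPKM of 85.9, 86.9 and 87.5 without serine and glycine and 97.3, 106 and 101 with them (−0.22 ± 0.05, adjusted p = 0.0189). The call was lost with the length trend removed (−0.18, adjusted p = 0.0922) and held in 9 of 19 alternatives. Ahcy, which hydrolyses S-adenosylhomocysteine, was at 91.9, 94.8 and 95.6 against 107, 109 and 105 and did not pass (−0.19, adjusted p = 0.278).

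**Figure D2:**
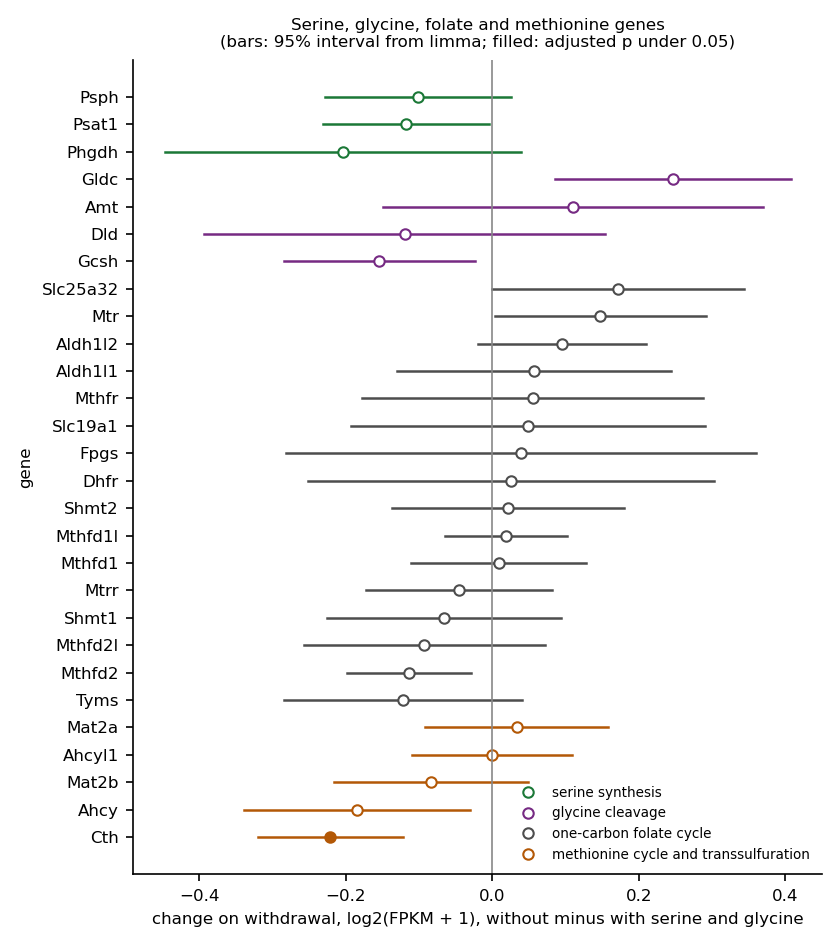
The x axis gives the log2(FPKM + 1) change, without minus with serine and glycine, in WT monocultures for the serine synthesis, glycine cleavage, folate and methionine genes on the y axis; points are estimates and bars are 95% intervals from limma. The 3 serine synthesis genes lie left of 0, the folate genes spread on both sides of it, and Cth, filled, is the one member called.

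Targets of ATF4 and the amino acid response showed no common shift. Of 29 tested members 0 were called, 15 had a log2 change above 0, and the median was 0.002. Of 28 of these genes and serine synthesis genes that matched a RefSeq promoter window (GRCm38.p6, 250 bases before to 50 after the start site), 11 held the C/EBP-ATF composite element TGATGNAA on either strand (39.3%), beside 4.51% of 27025 genes with a window. A match is a description of the letters, and not evidence of binding. As examples from the 11 genes with a match, 4 stretches are printed 5′ to 3′ on the gene's strand. Each match to the element is in capitals (TTNCATCA is its reverse complement). The stretch of Slc7a11 holds 2 matches, 1 on each strand.
Asns, chr6:7693185-7693272, minus strand: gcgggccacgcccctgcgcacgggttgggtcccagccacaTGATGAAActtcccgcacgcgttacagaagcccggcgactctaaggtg
Chac1, chr2:119351009-119351096, plus strand: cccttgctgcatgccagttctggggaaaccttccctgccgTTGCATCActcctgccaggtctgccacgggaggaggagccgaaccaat
Nupr1, chr7:126625533-126625620, minus strand: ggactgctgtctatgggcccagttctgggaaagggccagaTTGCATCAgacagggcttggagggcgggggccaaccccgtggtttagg
Slc7a11, chr3:50443632-50443719, minus strand: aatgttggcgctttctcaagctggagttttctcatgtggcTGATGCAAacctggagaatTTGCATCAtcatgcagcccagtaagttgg

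The 4 genes whose stretches are printed, of 11 with the element, went in different directions, and none passed the test. Asparagine synthetase, Asns, was at FPKM of 116, 116 and 111 without serine and glycine and 118, 123 and 121 with them (−0.08, adjusted p = 0.777). The glutathione-degrading enzyme Chac1 was at 91.6, 94.9 and 96.2 against 115, 108 and 104 (−0.21, adjusted p = 0.743). The stress-induced cofactor Nupr1 was at 71.8, 75.8 and 69.9 against 71.4, 68.8 and 71.6 (0.04, adjusted p = 0.911). Slc7a11, the cystine-glutamate antiporter, was at 12.8, 10.9 and 12.5 against 9.61, 9.73 and 9.88 (0.28 ± 0.09, adjusted p = 0.150). The groups of Asns, Chac1 and Slc7a11 did not overlap, which was also so for 27.8% of all tested genes. Atf4 itself was at 268, 288 and 268 against 308, 300 and 306 (−0.15 ± 0.20, adjusted p = 0.866), and the measurement is of transcript, while ATF4 is regulated largely at translation. Slc7a3, a cationic amino acid transporter, had the lowest p of the list (0.35 ± 0.10, adjusted p = 0.116).

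Genes downstream of amino acid and one-carbon supply gave few calls, beside 1.63% of all tested genes called. Of 16 amino acid transporters 1 rose: Slc7a1, the cationic amino acid transporter CAT1, at FPKM of 33.6, 33.0 and 35.1 without and 29.4, 29.6 and 30.0 with serine and glycine (0.19 ± 0.04, adjusted p = 0.0123). With the length trend removed its change was 0.10 (adjusted p = 0.610). None of the 20 cytosolic aminoacyl-tRNA synthetases (median −0.04), 15 purine synthesis genes (−0.04), 15 pyrimidine and deoxynucleotide genes (−0.05) and 20 sphingolipid and phosphatidylserine synthesis genes (−0.06) was called. Cad, which starts pyrimidine synthesis, was at 14.2, 15.3 and 15.4 against 12.1, 11.8 and 11.5 (0.32 ± 0.10, adjusted p = 0.162). Of 42 DNA replication and S phase genes 0 were called, 11 lay above 0, and the median was −0.08. Rfc4, a subunit of the sliding clamp loader, had their lowest p at 7.67, 6.44 and 7.29 against 9.07, 8.47 and 9.60 (−0.31 ± 0.08, adjusted p = 0.0635). Of 30 mitosis genes 0 were called (median −0.01).

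Cytoskeletal linkers were the list with the largest share of calls. The lists were chosen with earlier results of these data known, so such a share describes the list and is no separate evidence. These are large proteins that join actin, microtubules and intermediate filaments to each other or to adhesions. Of 19 tested 13 rose, none fell and all 19 estimates lay above 0, with a median of 0.36 beside −0.011 over all tested genes and 1.37% of all genes called higher. Flna (chromosome X, 74223461 to 74249820), the actin crosslinker filamin A, had FPKM of 147, 142 and 148 without and 113, 111 and 111 with serine and glycine (0.38 ± 0.05, adjusted p = 0.000345). The non-muscle myosin heavy chain Myh9 was at 34.8, 35.6 and 35.0 against 26.1, 26.4 and 26.0 (0.41 ± 0.04, adjusted p = 6.66e-05). In both genes the gap between the groups was wider than the spread within either. Talin, Tln1, which links integrins to actin, was at 26.3, 26.2 and 26.6 against 20.6, 20.3 and 19.5 (0.38 ± 0.06, adjusted p = 0.00138). Further calls were in Plec, Dst, Ahnak2, Dsp, Utrn, Ahnak, Macf1, Sptan1 and Vcl, at 0.24 to 0.53. The actin crosslinkers Actn1 (0.19, adjusted p = 0.116) and Actn4 (0.05, adjusted p = 0.846) were not called. The list is made of long genes (median 10458 bases, with 14 of 19 among the 1206 longest tested genes). With each library's trend on gene length removed, its median was 0.22 and 6 of the 13 calls remained. Flna kept its call (adjusted p = 0.0461), while Myh9 (0.0577) and Tln1 (0.0985) lost theirs.

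Basement membrane genes rose in 4 of 15 cases and fell in 0, with a median of 0.15, beside 1.37% of all genes called higher. Of the 15 genes 5 are among the 1206 longest tested, of which 8.04% were called higher. Besides Lama5 and Hspg2 these were the laminin chains Lamb2, at FPKM of 43.0, 44.8 and 42.2 against 32.6, 33.4 and 30.2 (0.42 ± 0.07, adjusted p = 0.00398), and Lamc1, at 25.4, 23.6 and 25.9 against 20.4, 20.5 and 21.0 (0.26 ± 0.05, adjusted p = 0.00390). Laminin α5, β2 and γ1 are the chains of laminin 521, and all 3 were higher in every serine- and glycine-free library. The chain Lamb1 (−0.06, adjusted p = 0.570) was not called. The type IV collagen chains Col4a2 (0.32, adjusted p = 0.137) and Col4a1 (0.15, adjusted p = 0.694) and agrin, Agrn (0.35, adjusted p = 0.223), had higher values without overlap but did not pass. Among all tested genes 27.8% did not overlap. With the length trend removed the calls of Lamb2 and Lamc1 remained and those of Lama5 (0.55, adjusted p = 0.152) and Hspg2 (0.46, adjusted p = 0.258) were lost, with changes that stayed above 0.

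Of 12 integrin subunits 1 rose, Itga7, at FPKM of 14.4, 14.7 and 14.5 against 10.3, 9.90 and 9.65 (0.51 ± 0.12, adjusted p = 0.0386). Its call was lost with the length trend removed (0.46, adjusted p = 0.166). Beside this and the next counts, 1.37% of all tested genes were called higher and 0.257% lower. Among the 1206 longest, 8.04% were called higher. Itga3, the most abundant α chain, was at 126, 125 and 125 against 104, 101 and 101 and did not pass (0.30 ± 0.08, adjusted p = 0.0773). Itgb1, the shared β1 chain, was at a mean of 143 against 145 (−0.02, adjusted p = 0.975). Of 11 cadherins 2 rose, Fat1 and Cdh1, and 1 fell, Cdh17. Cdh1 (chromosome 8, 106603351 to 106670246), E-cadherin of epithelial adherens junctions, was at 145, 143 and 148 against 116, 117 and 114 (0.33 ± 0.04, adjusted p = 9.74e-05). Its libraries spread little and its gene is of ordinary length (4574 bases). Of 14 epithelial genes 3 rose, among them Cdh1 and the desmosome protein Dsp (0.39), while the keratins Krt7, Krt8, Krt18 and Krt19 lay between −0.08 and 0.03 and were not called. Among 14 mesenchymal genes fibronectin, Fn1, rose (23.8, 22.4 and 24.5 against 18.6, 19.4 and 18.3, 0.31 ± 0.05, adjusted p = 0.00158). Vimentin, Vim, fell (514, 529 and 506 against 611, 607 and 615, −0.24 ± 0.05, adjusted p = 0.0239). With the length trend removed Fn1 lost its call (0.23, adjusted p = 0.0896) and Vim kept it (−0.23, adjusted p = 0.0394).

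Coactivators and chromatin remodellers rose in 13 of 23 cases and fell in 0, with a median of 0.22, beside 1.37% of all genes called higher and 8.04% of the 1206 longest tested genes, among which 15 of the 23 lie. Trrap, the scaffold of the TIP60 and SAGA acetyltransferase complexes, was at FPKM of 6.18, 5.68 and 6.03 against 3.83, 4.01 and 4.15 (0.48 ± 0.05, adjusted p = 6.66e-05). The ubiquitin ligase Huwe1, placed in this list for its role in transcription factor turnover, was at 39.4, 34.9 and 39.3 against 26.8, 28.4 and 28.7 (0.42 ± 0.08, adjusted p = 0.00971). The acetyltransferase Ep300 was at 9.55, 8.49 and 9.91 against 6.92, 7.03 and 7.34 (0.35 ± 0.06, adjusted p = 0.00202). In Huwe1 and Ep300 replicate 2 of the serine- and glycine-free group was again the lowest of its group. Further calls were in Crebbp, Ep400, Bptf, Arid1a, Arid1b, Chd4, Baz2a, Med12 and Med13l, at 0.20 to 0.31. Of 27 genes of the KMT2 and SET methyltransferase families and their partners Kmt2d (0.52) and Kmt2a (0.41) rose, and 23 estimates lay above 0. Of the 13 calls among coactivators and remodellers 4 remained with the length trend removed. This list, too, was chosen with earlier results of these data known.

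Immediate early genes gave 2 calls of 27, beside 1.63% of all tested genes. Fos (chromosome 12, 85473890 to 85477273), which dimerises with Jun proteins in AP-1, was at FPKM of 58.0, 53.3 and 59.0 against 43.4, 39.99 and 41.6 (0.44 ± 0.07, adjusted p = 0.00190). Fosb was at 10.9, 10.2 and 10.7 against 7.78, 6.98 and 6.52 (0.52 ± 0.13, adjusted p = 0.0486). Both groups were separate in both genes. Jun (−0.02, adjusted p = 0.977), Fosl1 (0.12, adjusted p = 0.686) and Myc (0.01, adjusted p = 0.977) were not called, and Egr1 was at 0.28 (adjusted p = 0.452). Fos is short (2352 bases) and kept its call with the length trend removed (adjusted p = 0.000266), while Fosb lost it (adjusted p = 0.122) with a change of about the same size (0.50). Of 21 YAP targets and partners 3 rose, beside 1.37% of all tested genes. They were the transcription factor Tead1 (0.36), the matricellular protein gene Cyr61 (0.25, at 161, 159 and 161 against 137, 134 and 133) and the phosphatase Ptpn14 (0.24). With the length trend removed Ptpn14 lost its call (adjusted p = 0.589), while Tead1 and Cyr61 kept theirs.

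Metabolic and stress lists held few calls, beside 1.63% of all tested genes called. Fasn, the fatty acid synthase, was at FPKM of 52.3, 50.8 and 52.8 against 37.3, 38.7 and 37.6 and rose (0.45 ± 0.09, adjusted p = 0.0114), 1 of 16 fatty acid genes. With the length trend removed the change of Fasn was 0.37 and its call was lost (adjusted p = 0.201). Of 34 hypoxia and glycolysis genes hexokinase 2, Hk2, rose (0.25, at 23.4, 22.9 and 23.7 against 20.2, 19.6 and 18.8) and Pgf fell. Both calls were lost with the length trend removed (for Hk2 adjusted p = 0.0577). Of 21 p53 targets Gadd45a fell, at 63.8, 69.3 and 65.3 against 88.0, 79.6 and 80.2. None was called among 28 NRF2 and glutathione genes (median −0.07), 23 genes of endoplasmic reticulum chaperones and the unfolded protein response (−0.01), 13 cytosolic heat shock genes (−0.04) and 11 interferon response genes (0.01).

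Short genes of abundant complexes had slightly lower values without reaching the threshold. Of 73 cytosolic ribosomal protein genes 0 were called, 7 lay above 0, and the median was −0.10. Rpl19 was at a mean FPKM of 1134 against 1278 (−0.17 ± 0.05, adjusted p = 0.108). The share of reads in ribosomal protein genes was 8.41 to 9.04% in the serine- and glycine-free libraries and 9.22 to 9.40% in the others. Of 60 nuclear genes of the respiratory chain 0 were called (6 above 0, median −0.10). Of 13 mitochondrially encoded genes 0 were called and 12 lay below 0 (median −0.24), with 1.83 to 1.92% of reads in the serine- and glycine-free libraries and 2.06 to 2.28% in the others, which did not overlap. With quantile normalization the medians were −0.01 for ribosomal proteins, −0.07 for the respiratory chain and −0.10 for mitochondrially encoded genes. Of 21 Sm and LSm genes of the spliceosome Snrpf fell, beside 0.257% of all tested genes. In this list 3 lay above 0, and the median was −0.13.

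Malat1 (chromosome 19, 5795690 to 5802672, 6983 bases), a nuclear long non-coding RNA of splicing speckles, rose most among genes with more than a few reads. Its FPKM was 65.8, 61.5 and 61.3 without serine and glycine and 29.6, 28.2 and 28.4 with them, from 8051 to 8513 reads and 3636 to 3708 reads per library. The 2 groups were far apart and each was tight. The log2 change was 1.10 ± 0.12 (adjusted p = 6.66e-05), and Malat1 was the one gene that kept its call and direction in all 19 alternatives. Xist, another nuclear RNA, was at 20.1, 16.3 and 19.1 against 12.5, 12.9 and 13.3 (0.48 ± 0.13, adjusted p = 0.0632), and the paraspeckle RNA Neat1 was at 14.6 against 13.5 in the mean (0.11, adjusted p = 0.652). Snhg1, a host of small nucleolar RNAs, fell (70.9, 71.2 and 67.7 against 81.6, 82.6 and 84.9, −0.25 ± 0.05, adjusted p = 0.00735). The other non-coding genes with large called changes rested on few reads, namely Gm25965 (a small nucleolar RNA, 13 reads over 3 libraries against 0), Gm45820 (antisense, 30 against 3), Gm17024 (within an intron, 121 against 37) and Gm10478 (a pseudogene, 35 against 6). The sources used here do not say whether strand was used in counting, so reads of the antisense and intronic genes cannot be told apart from those of their neighbours.

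The change on withdrawal rose with gene length. Rises had a median gene length of 10199 bases and falls of 2969, beside 3850 over all tested genes. Of the 165 rises 97 were among the 1206 longest tested genes (9247 bases or more), of which 8.04% were called higher, and of the 31 falls 2 were. The tested genes were split by length into 10 groups of about equal size. The median log2 change ran from −0.068 in group 2 to 0.087 in group 10, the longest, and the genes of group 10 that were not called had a median of 0.072. Across genes the Spearman correlation of change with length was 0.28 over 12061 genes, which share their libraries and are not independent. The 3 serine- and glycine-free libraries differed in this respect, with medians in the longest group of 0.10, 0.047 and 0.11 in replicates 1, 2 and 3, while the 3 other libraries lay between −0.017 and 0.0099. The longest group took 12.3 to 13.1% of reads in the serine- and glycine-free libraries and 11.3 to 11.6% in the others. With the trend on length removed from each library 88 genes were called, among them 72 of the 196. With trends on length and GC content both removed 273 were called, among them 121 of the 196. With the length trend alone removed, 31 of the 97 rises in the longest group remained, 30 of the other 68 rises, and 11 of the 31 falls. What part the length trend has in the rises was not tested.

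**Figure D3:**
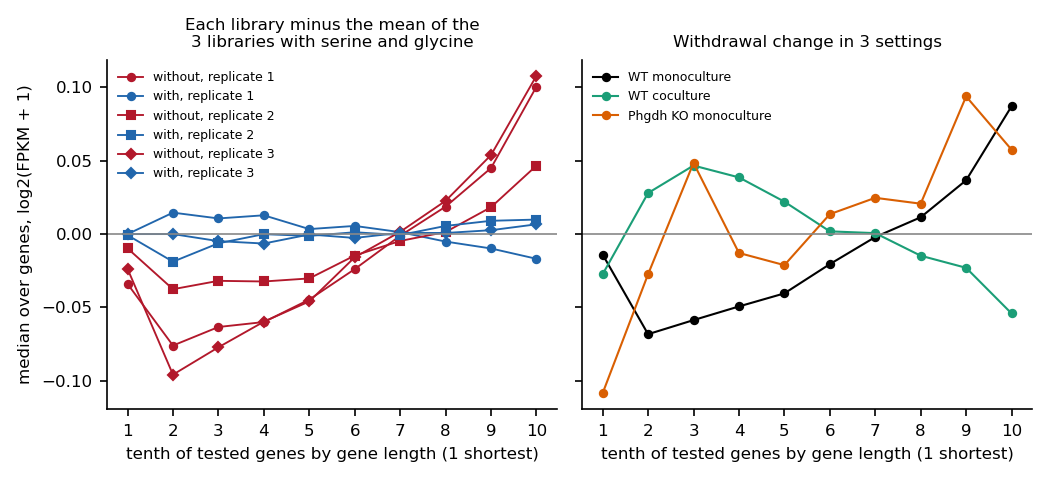
The x axis gives 10 groups of the 12061 tested genes by gene length, from shortest (1) to longest (10), and the y axis the median over genes on the log2(FPKM + 1) scale, on the left for each WT monoculture library minus the mean of the 3 with serine and glycine and on the right for the withdrawal change in 3 settings. Red libraries (without serine and glycine) climb to between 0.047 and 0.11 in the longest group while blue libraries (with them) stay near 0, and the WT coculture change falls with length to −0.054.

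A short list of genes, counted after the values were seen, kept its calls as long as no replicate block was fitted. In all 16 alternatives that had no replicate block 22 genes kept their call and direction, 21 higher and 1 lower. The lower one was Cdh17. With a replicate block and only the compared libraries in the fit, Malat1 alone stayed called, so the calls of the other genes rest on the choice of model. Among the 21 were Malat1, Fat1, Cdh1, Fos, Flna, Dst, Lamb2, Lamc1, Slco4a1 and Abcc5. They also included the spliceosome core protein Prpf8 (46.5, 46.0 and 48.5 against 38.0, 38.7 and 41.4), the speckle protein Srrm2 (45.7, 41.8 and 45.7 against 31.7, 31.9 and 33.6), the cytoplasmic dynein heavy chain Dync1h1 (22.1, 21.3 and 23.6 against 15.8, 16.2 and 16.2) and the taurine transporter Slc6a6 (30.8, 28.5 and 31.2 against 23.3, 24.1 and 24.3). Further were the lysosomal sorting receptor Igf2r (20.5, 19.6 and 21.2 against 15.3, 14.9 and 15.4), the insulin receptor Insr (6.07, 5.67 and 6.15 against 4.34, 4.59 and 4.39), the largest subunit of RNA polymerase I, Polr1a (8.77, 8.58 and 9.45 against 7.16, 6.76 and 6.76), the elongation factor gene Aff1 (0.30), the melanosome transport gene Mlph (0.23) and Spaca6 (0.52), a sperm fusion gene.

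In WT cells cocultured with hepatocytes few of the monoculture calls were called on withdrawal. These 6 libraries are separate from the monoculture libraries. In them 89 genes (0.738%) were called on withdrawal. Of the 196 monoculture calls 9 were called in both settings, and 7 of these 9 had opposite directions. Malat1 fell in coculture, at FPKM of 26.1, 36.6 and 38.0 without and 57.5, 65.6 and 51.3 with serine and glycine (−0.79 ± 0.12, adjusted p = 0.00311). Malat1 was thus low in WT monocultures with and in WT cocultures without serine and glycine. Fn1 was at 50.3, 50.5 and 50.6 without and 63.7, 60.4 and 62.6 with serine and glycine in coculture (−0.30, adjusted p = 0.00383). The other genes that rose in monoculture and fell in coculture were the chromatin remodeller Ep400 (0.23 and −0.28), the splicing genes Khdc4 (0.23 and −0.29) and Arglu1 (0.32 and −0.31), Casc1 (0.21 and −0.51) and AC160637.1 (0.44 and −0.50). Slco4a1 rose in both settings (0.48 and 0.54), as did Abcc5 (0.47 and 0.24).

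The difference between the monoculture and coculture changes was tested directly as an interaction, and 201 genes (1.67%) passed, 150 with the higher change in monoculture and 51 with the higher change in coculture. Of the 196 monoculture calls 102 were among them. The interaction contains the same monoculture change by which the 196 were picked, so this overlap, like that of the linkers below, was favored in advance. Of the 165 rises 126 had a coculture estimate below 0 and 39 above it, and the median coculture change was −0.06 for the rises and −0.04 for the falls. Over all tested genes that median was 0. Over the 1206 longest genes, which include 97 of the rises, it was −0.054, so the median of the rises was near that of long genes. Of the 19 cytoskeletal linkers 12 passed the interaction test, with a median of 0.36 in monoculture and −0.08 in coculture. For Fat1 the changes were 0.60 and −0.15 (interaction 0.75, adjusted p = 0.000283), and for Flna 0.38 and −0.20 (adjusted p = 0.000194). Genes of S phase were on the other side. The ribonucleotide reductase subunit Rrm2 was at 2.59, 1.81 and 1.72 against 3.17, 2.81 and 2.47 in monoculture and at 9.82, 10.1 and 10.5 against 5.71, 7.02 and 5.23 in coculture, so it was lower without serine and glycine in one setting, where it was not called and the groups overlapped, and rose in the other. The replication helicase subunit Mcm3 (−0.12 and 0.55) and the S phase activator E2f1 (−0.13 and 0.52) were likewise not called in monoculture and rose in coculture, with monoculture groups that overlapped for Mcm3 and were apart for E2f1. In all, 9 of 42 S phase genes passed the interaction test. The share of reads in the 1206 longest genes moved with these differences: in coculture it was 11.4 to 12.05% without and 12.04 to 12.55% with serine and glycine, and the correlation of change with length was −0.15. The part of length in the difference between settings was not tested. Summed FPKM of 15 hepatocyte markers was 0.231 to 1.08 and 0.295 to 0.584 in the 2 coculture groups, beside 0.0994 to 0.669 and 0.120 to 0.754 in the 2 monoculture groups, so the defining markers were near 0 in all 4.

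**Figure D4:**
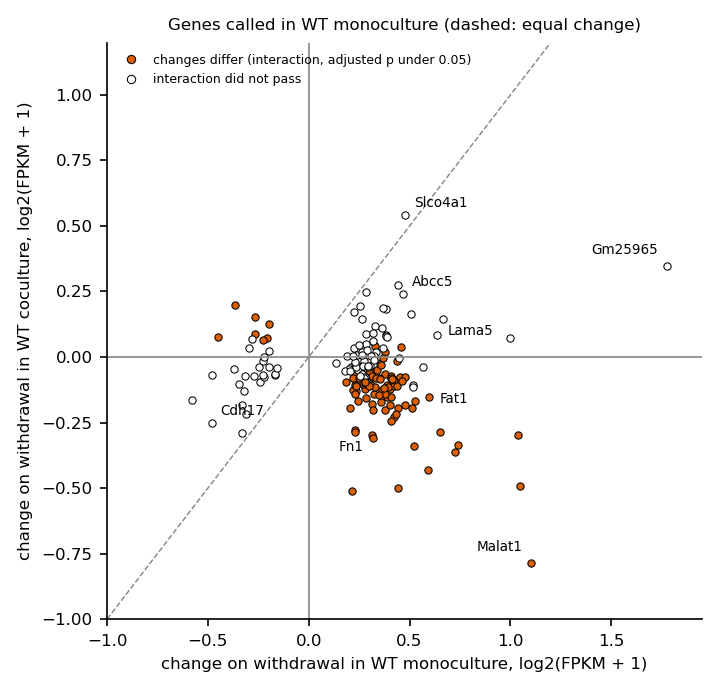
Each point is 1 of the 196 genes called on withdrawal in WT monoculture; the x axis gives the log2(FPKM + 1) change in monoculture and the y axis that in WT coculture, and filled points are the 102 whose changes differ by the interaction test. Most rises lie below the horizontal line at 0, Malat1 lies farthest down, and Slco4a1 lies near the dashed line of equal change. The interaction contains the monoculture change by which these genes were picked.

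Withdrawal in Phgdh KO monocultures gave a response of another scale, with 8534 genes called (70.8%). The genotypes' changes differed in 7385 genes (61.2%), and 149 of the 196 WT calls were among them. This interaction, too, contains the WT change by which the 196 were picked. Of the 165 genes that rose in WT cells 77 rose and 62 fell in KO cells, and of the 31 that fell 16 rose and 15 fell. Over all 12061 tested genes 4372 rose and 4162 fell in KO cells, which is likewise a near-even split. Fat1 rose in both genotypes, at 22.3, 22.1 and 22.5 without and 14.2, 11.3 and 12.1 with serine and glycine in KO cells (0.79). Slco4a1 rose in WT cells but in KO cells was at 0.901, 1.14 and 0.836 without and 25.4, 30.0 and 29.7 with serine and glycine (−3.91, interaction 4.39). Serine synthesis genes, which were not called in WT cells, had a median change of 0.28 in KO cells, and all 3 passed the interaction test. Phgdh transcript was at 616, 732 and 737 without and 372, 548 and 529 with serine and glycine in KO cells (0.54), against −0.20 in WT cells. The 10 largest interactions (5 in each direction) were taken among passing protein-coding genes with a mean FPKM of 5 or more in a compared group. Of these 10, 8 were in genes not called in WT cells. Among these 8 were Sprr1a, a cornified envelope gene (0.11 in WT, 6.03 in KO), Scd2, a stearoyl-CoA desaturase (0.11 and −5.44), the galectin Lgals4 (0.03 and −5.22) and Rrm2 (−0.34 and 4.42). The other two were Slco4a1 and Dynap, which fell in WT cells (−0.48) and rose in KO cells (4.83). Malat1 was at 0.09 in KO cells, with 65.4 to 79.1 without and 57.2 to 80.7 with serine and glycine. In both KO monoculture groups replicate 1 stood apart, with 2.37% of reads in mitochondrially encoded genes against 1.92 and 2.02% without serine and glycine, and 2.92% against 2.11 and 2.33% with them. Without these libraries 7593 genes passed the genotype interaction.

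**Figure D5:**
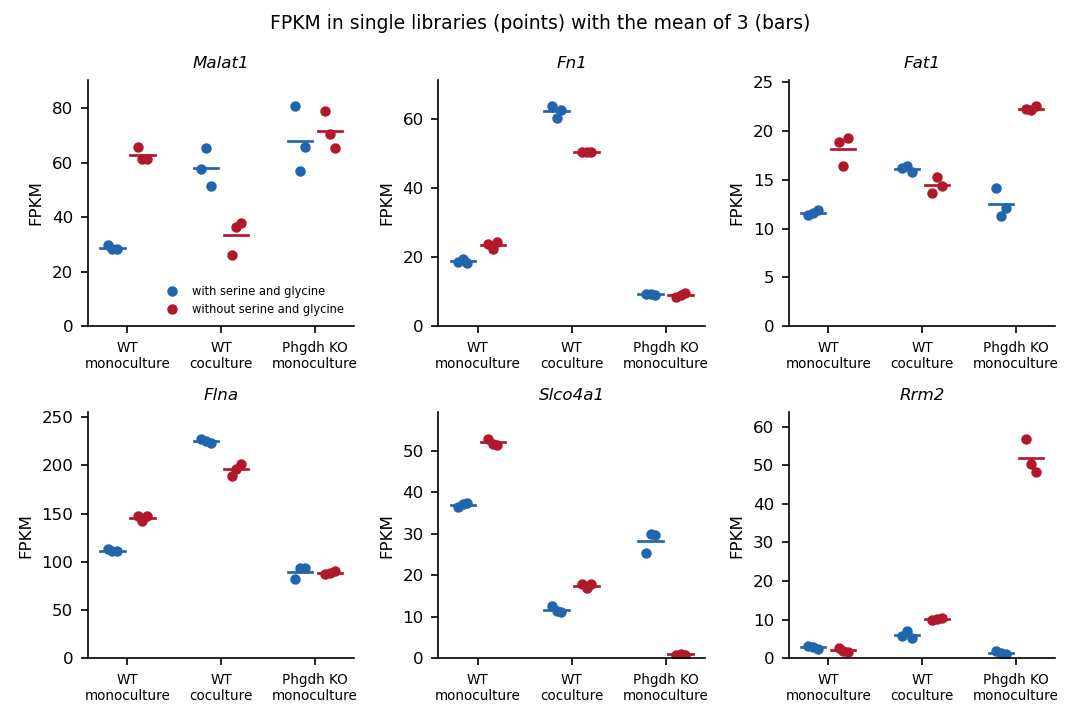
The y axes give FPKM, starting at 0, for 6 genes in WT monoculture, WT coculture and Phgdh KO monoculture on the x axes; points are libraries (blue with and red without serine and glycine) and bars are means of 3. Malat1, Fn1, Fat1 and Flna are higher without serine and glycine in WT monoculture and lower in WT coculture, Slco4a1 is higher in both WT settings and near 1 in starved KO cells, and Rrm2 reaches 48.3 to 56.9 in starved KO cells.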

How the data were processed

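Total RNA of HY19636 cells was extracted with an RNeasy kit, per the labels' protocols, and per the submitters' processing notes the reads were aligned by HISAT2 to GRCm38 (mm10). The authors deposited FPKM for 54532 genes. Within each library, FPKM times gene length came in whole steps of 1 read for 100% of values (tolerance 0.01 read). The recovered totals were 15740081 to 23479425 reads over 24 libraries. The total used for scaling was 0.969 to 1.07 times each library's own. There were 0 columns of other samples.

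Genes with an FPKM of at least 1 in 3 or more libraries were fitted as log2(FPKM + 1) with limma 3.58.1 (R 4.3.3, mean-variance trend, 8 group means, 24 libraries, 16 residual degrees of freedom, two-sided). Such log2 changes understate those of low genes. P-values were adjusted by Benjamini-Hochberg over the 12061 genes, and genes were called under 0.05. Scripts were tested on simulated data. The members, the 36 gene lists and 6 marker lists, and the tests were chosen with earlier results of these data known. Lists are described by counts and medians.

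Named genes are the serine pathway members, the 12 largest rises and falls (protein-coding, called, not overlapping, a mean FPKM of 5 or more where higher, no predicted, clone or date-like symbol), called list members or the 2 of lowest p, genes called in every alternative, the 5 largest interactions each way, and 5 non-coding genes. Picks by interaction were also limited to passing protein-coding genes without such symbols, with a mean FPKM of 5 or more in a compared group. Any other gene was named after its values were seen. Alternatives changed the model, pseudocount, filter, normalization, replicate block, length and GC trend, and left out each library. GC values covered 99.9% of genes. Replicate libraries differed beyond counting noise (chi-square per degree of freedom 3.52 to 5.51). Some members of the gene lists are counted but not reported here.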

Additional observations from a re-analysis of the deposited data

Results flagged for a closer look

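The change on withdrawal differed between WT monoculture and WT coculture in 201 genes and between WT and Phgdh KO monocultures in 7385 genes, each by an interaction term in limma at an adjusted p under 0.05. The values below are the log2 change in WT monoculture minus that in the other setting. None of these differences carries an explanation here.

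Against coculture, the change was higher in monoculture for Malat1 (1.888), the apolipoprotein Apoe (1.283), AC160637.1 (0.9391), the phosphatase-related gene Plppr3 (0.8776) and the RNA processing gene Leng8 (0.8463). It was also higher for Fat1 (0.7504), the splicing factor Luc7l2 (0.7391), Casc1 (0.7262), Arglu1 (0.6288), Fn1 (0.6093), Khdc4 (0.5153) and Ep400 (0.5042). Apoe was at an FPKM of 4.11, 5.37 and 4.32 without and 2.85, 2.63 and 2.88 with serine and glycine in monoculture, and at 2.73, 3.16 and 3.65 without and 5.62, 5.86 and 6.16 with them in coculture, so each setting's groups were apart in opposite directions. It was lower in monoculture for Rrm2 (−1.015), the cytokinesis gene Ect2 (−0.8263), the replication licensing inhibitor Gmnn (−0.7722), Mcm3 (−0.6681) and E2f1 (−0.6465). Ect2 had FPKM of 4.02 to 4.47 without and 4.13 to 4.46 with serine and glycine in monoculture, which overlap, and of 6.19 to 7.09 without and 3.19 to 3.97 with them in coculture.

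Against KO monoculture, the change was higher in WT cells for the desaturase Scd2 (5.551), the galectin Lgals4 (5.247), Slco4a1 (4.385), the glutathione transferase Gstm1 (4.242) and Igfbp7 (4.059). It was lower in WT cells for the cornified envelope gene Sprr1a (−5.918), Dynap (−5.306), the circadian repressor Nr1d1 (−4.916), Rrm2 (−4.758) and the collagenase Mmp13 (−4.74). Of these 10 genes Slco4a1 and Dynap were called on withdrawal in WT cells, Slco4a1 higher and Dynap lower.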

How the results depend on the processing

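The 196 calls of WT monoculture became 302 with only its 6 libraries in the fit, 579 with the 12 WT libraries, 431 without the 2 replicate 1 libraries of KO monoculture, and 88 with the length trend removed. The 201 genes of the coculture interaction became 552, 482 and 127 under the last 3 of these. With length and GC trends removed together the counts were 273 and 299. Leaving out 1 WT monoculture library gave 62 to 140 and 107 to 195 calls (lowest for both when replicate 3 without serine and glycine was left out). The genotype interaction stayed between 5450 and 8058. With a replicate block of all 24 libraries 147 genes were called, with the block and the length trend removed 55 (83 for the coculture interaction), and with the block and only the libraries compared 1 (303 for the coculture interaction). Same-numbered libraries did not deviate together (correlations of −0.03, −0.01 and 0.03), so the numbers were not taken as pairs. No gene named in the text reversed under any alternative while called. Filters, pseudocount, quantile normalization and voom gave 178 to 213. The cause of these differences was not tested, beyond the smaller number of libraries where some were left out. Changes of genes under a few FPKM are limited by depth.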
